A study of Rattus norvegicus with 2 samples.

Results

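The genes described here are 39 components and targets of Toll-like receptor and NF-kappaB signalling, chosen by name and measured in rat intracranial arteries. They comprise 22 pathway components (receptors, adaptors, kinases, subunits and the inhibitor Nfkbib) and 17 genes that the pathway is known to induce. Of the 39, 32 were matched to an array probe, among 15159 genes matched in all. The study compared an aneurysm lesion taken 3 weeks after induction (aneurysm, 1 sample) with intracranial arterial wall of untreated rats (control, 1 sample). The labels do not give the method of induction, the strain, the sex or the age, or how many animals each sample holds. Total RNA was measured on 1-colour Agilent arrays, 1 per sample.

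With 1 array per group, no difference has a replicate check and the conditions could not be tested against each other, so no p-value is given. Each difference describes these 2 libraries, and the number of arrays limits its precision. A level is the processed spot signal divided by the 75th percentile of the array's non-control spots, and is compared only between the arrays for the same probe. A difference is log2 aneurysm minus control. The value after ± is the spot error, taken from the spread of repeat spots within an array, and holds no variation between animals. A gene is called detected on an array where at least as many spots of its probe carry the scanner software's flag for a signal well above background as do not.

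Toll-like receptors are membrane proteins that recognise microbial products and products of damaged tissue. They recruit the adaptors Myd88 and Ticam1, which act through Irak and Traf proteins and the kinase Map3k7 on the IkappaB kinase complex. This complex marks inhibitory IkappaB proteins for degradation, which frees NF-kappaB dimers to enter the nucleus and induce adhesion molecules, survival genes and the pathway's own inhibitors. In the arterial wall, endothelial cells, smooth muscle cells and macrophages can all use the pathway.

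Both libraries held vessel wall transcripts. All 6 smooth muscle markers and all 7 matched endothelial markers were detected on both arrays. The libraries also differed in RNA of other tissues. Of 13 hepatocyte markers 8 were detected on both arrays and all 8 were lower in the aneurysm library. The median difference of these 8 was -5.09. Over the 11 detected on at least 1 array, the summed level was 8.60 in the aneurysm and 47.3 in the control. Of these sums Ttr, the least changed of the 11 at -1.42, held 7.93 in the aneurysm and 21.2 in the control. All 7 oligodendrocyte markers were also lower, with a summed level of 85.2 in the aneurysm and 168 in the control. So were 4 of 4 measured pituitary markers, with a median difference of -1.82, and 4 of 4 astrocyte markers, with a summed level of 7.65 in the aneurysm and 9.57 in the control. Neuron markers were less uniform. Of 5 measured, 4 were lower and 1, Gad1, was higher at 0.17 (median -0.23). Their summed level was 2.59 in the aneurysm and 3.33 in the control. The part of these transcripts in the differences of the pathway genes was not tested. In bulk tissue, fewer cells of a type and less RNA per cell cannot be told apart.

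The pathway genes differed little between the libraries, and more of them were higher than lower in the aneurysm by over 2 spot errors, except that with normexp the counts were close. Of the 39 genes, 28 were detected on both arrays, 2 (Ikbkg and Tbk1) on the aneurysm array only and 2 (Sele and Selp) on neither. The other 7, Rel, Relb, Nfkbiz, Tnfaip3, Traf1, Traf3 and Ticam1, had no matched probe and are not analysed here. Among the 28 genes, 19 had a difference above 0 (67.9%), as had 5599 of all 11201 genes detected on both arrays. More than 2 spot errors higher were 11 of the 28, against 21.9% of all genes, and more than 2 spot errors lower was 1 of the 28, against 21.5% of all genes. These counts were 3 higher (6.81% of all genes) and 2 lower (18.5%) with normexp. Quantile normalization gave 9 higher (21.2%) and 4 lower (21.7%), and loess centring 9 higher (18%) and 4 lower (24.6%). Spike-in scaling gave 24 higher (58.7%) and 0 lower (5.63%). Each count uses the spot errors of its own setting, and each share is that of all genes in the same setting. At a threshold of 1.5-fold, 1 gene was higher, Nfkbia, against 3.0% of all genes, and none was lower, against 6.22% of all genes. At least 25% higher were 3 genes (Nfkbia, Tlr4 and Vcam1), against 12.3% of all genes, and at least 20% lower, the same fold downwards, was 1 gene (Map3k7), against 15.1% of all genes. None of the 28 reached 2-fold in either direction, which 0.455% of all genes did upwards and 2.11% downwards. The median difference of the 28 genes was 0.10, and that of all genes was -0.0001 (interquartile range -0.19 to 0.18).

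Genes detected on a single array can be given as lower bounds, which adds Ikbkg and Tbk1 and makes 30 genes among 11902. Both passed the background filter through the aneurysm array alone, so their direction follows from the filter. Their place among the higher genes below is therefore no result, and their spot errors were 0.67 and 0.76 log2 units. Of these 30, 21 had a difference above 0, against 50.2% of all genes. At least 1.5-fold higher were 2 genes, Nfkbia and Tbk1, against 4.25% of all genes, and 0 were lower, against 8.43% of all genes. At least 25% higher were 5 genes, against 13.8% of all genes, and at least 20% lower was 1, against 17.0% of all genes. None reached 2-fold, which 0.882% of all genes did upwards and 3.91% downwards. The 5 are Nfkbia, Tlr4, Vcam1, Ikbkg and Tbk1, and at both thresholds the share of higher genes lies near that of all genes.

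**Figure D1:**
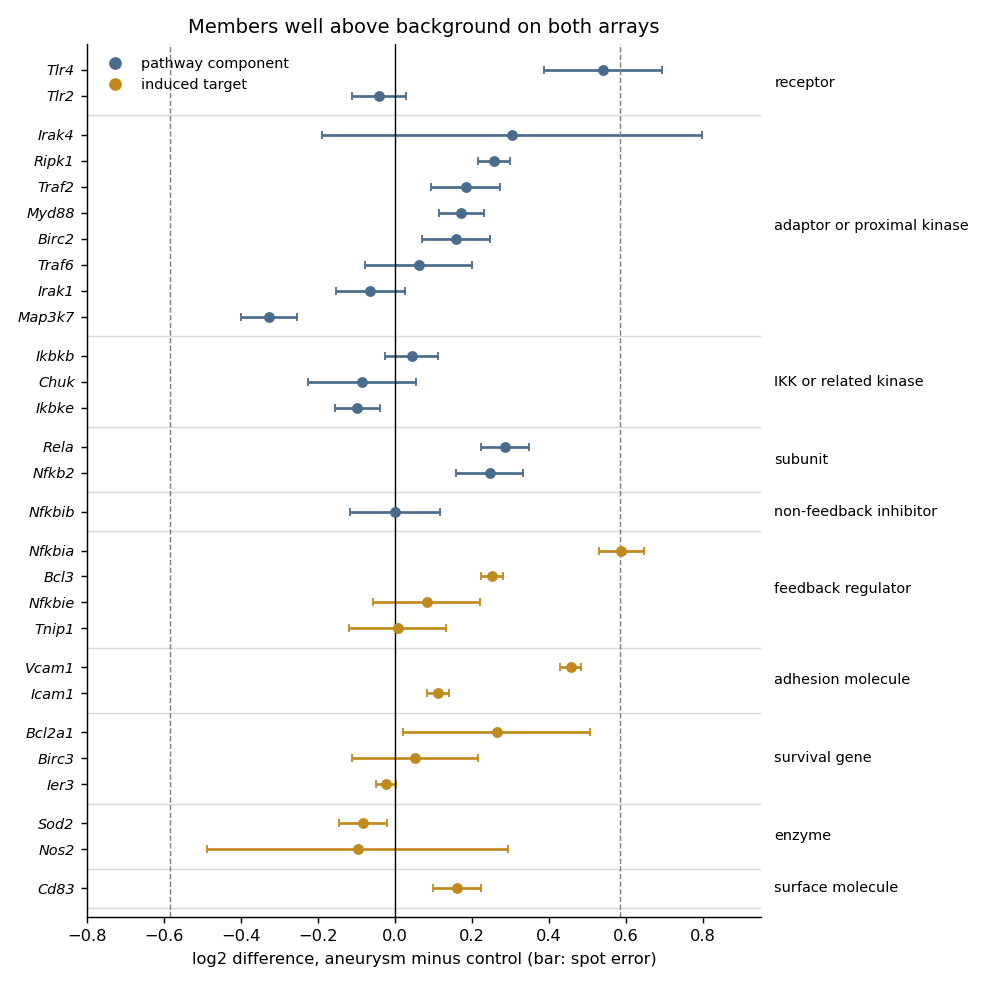
Log2 difference (aneurysm minus control, horizontal axis) of the 28 genes detected on both arrays, grouped by role, with bars for the spot error and dashed lines at 1.5-fold. Blue points are pathway components and yellow points induced targets. Nfkbia, Tlr4 and Vcam1 lie farthest to the right, Nfkbia just past the line, and Map3k7 is the only gene more than 2 spot errors below 0.

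Promoter sequence was available from RefSeq (build GRCr8) for 30 of the 39 genes, as windows from 250 bases before to 50 bases after the start. These windows were searched on both strands for the NF-kappaB decamer consensus, and overlapping or palindromic matches were merged. A match was present in 13 of the 30 windows (43.3%), against 4.18% of all 33469 windows. Base composition differs between them, with a median GC content of 61.5% in the 30 windows and 51.7% in all windows. Of 12676 windows in the middle of the GC range of these genes, 5.47% held a match. Among induced targets 8 of 13 windows held a match (61.5%), and among pathway components 5 of 17 (29.4%). A match describes only the letters in the window. Binding to it was not measured, and its part in any difference was not tested.

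The 250 bases before the start are shown for 6 genes, 5 with a match and Tlr4 without, because these genes include the largest differences and both classes. Capitals mark the match, and each sequence is on the strand of its gene. Nfkbia lies at chr6:78597073-78597322 (minus strand), Vcam1 at chr2:206742784-206743033 (minus strand) and Bcl3 at chr1:88613556-88613805 (minus strand). Nfkb2 lies at chr1:255108124-255108373 (plus strand), Tlr2 at chr2:171504558-171504807 (minus strand) and Tlr4 at chr5:85160997-85161246 (plus strand).
Nfkbia: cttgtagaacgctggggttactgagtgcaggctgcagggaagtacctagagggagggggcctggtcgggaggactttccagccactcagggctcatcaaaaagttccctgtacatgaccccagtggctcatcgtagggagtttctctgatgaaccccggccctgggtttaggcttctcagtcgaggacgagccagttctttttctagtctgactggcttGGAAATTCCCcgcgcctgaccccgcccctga
Vcam1: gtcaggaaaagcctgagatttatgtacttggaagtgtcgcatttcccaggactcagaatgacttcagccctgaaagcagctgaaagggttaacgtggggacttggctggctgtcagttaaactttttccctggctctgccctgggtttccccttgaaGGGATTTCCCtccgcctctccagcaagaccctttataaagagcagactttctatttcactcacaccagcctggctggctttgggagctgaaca
Bcl3: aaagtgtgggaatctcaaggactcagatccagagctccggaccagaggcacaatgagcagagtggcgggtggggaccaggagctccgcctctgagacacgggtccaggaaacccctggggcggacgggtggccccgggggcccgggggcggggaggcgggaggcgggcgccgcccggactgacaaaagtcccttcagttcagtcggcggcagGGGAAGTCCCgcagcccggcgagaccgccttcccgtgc
Nfkb2: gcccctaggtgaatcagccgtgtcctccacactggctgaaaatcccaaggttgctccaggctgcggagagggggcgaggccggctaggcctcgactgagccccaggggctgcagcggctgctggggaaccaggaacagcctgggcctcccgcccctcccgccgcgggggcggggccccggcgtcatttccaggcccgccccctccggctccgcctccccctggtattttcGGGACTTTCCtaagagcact
Tlr2: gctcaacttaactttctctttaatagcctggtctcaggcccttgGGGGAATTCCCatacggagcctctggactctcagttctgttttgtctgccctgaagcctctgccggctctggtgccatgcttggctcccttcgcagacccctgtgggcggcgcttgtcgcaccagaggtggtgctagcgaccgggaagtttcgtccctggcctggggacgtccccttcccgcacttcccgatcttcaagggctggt
Tlr4: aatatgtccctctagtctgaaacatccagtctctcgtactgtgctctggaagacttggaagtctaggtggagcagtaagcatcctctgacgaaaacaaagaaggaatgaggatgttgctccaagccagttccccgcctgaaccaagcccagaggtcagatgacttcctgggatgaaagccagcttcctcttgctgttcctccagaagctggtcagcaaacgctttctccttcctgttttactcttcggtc

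Counted from the start, the match of Nfkbia covers bases -31 to -22, that of Vcam1 -93 to -84 and that of Bcl3 -38 to -29. Those of the components Nfkb2 and Tlr2 cover -20 to -11 and -206 to -196. The other windows with a match were those of Nfkbie, Nfkbiz, Tnfaip3, Tnip1, Cd83, Traf3, Ikbkg and Rel, of which Tnfaip3 held 3 separate matches and Cd83 held 2. The windows of Icam1 and Rela held none. The differences of genes with and without a match overlapped. The 8 measured genes with a match had a median of 0.20 (range -0.04 to 0.59), and 7 of them were above 0. The 14 measured genes without one had a median of 0.16 (range -0.33 to 0.54), and 9 of them were above 0. Of all 11201 genes detected on both arrays, 5599 were above 0. The 2 sets were not tested against each other. Tlr4, without a match, and Nfkbia, with one, had the highest values of their sets.

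Of the receptors, Tlr4 was higher in the aneurysm and Tlr2 was not. Tlr4, the receptor for bacterial lipopolysaccharide, had a level of 0.234 in the aneurysm library, against 0.161 in the control library, a 1.45-fold difference (log2 0.54 ± 0.15). Its 2 repeat spots per array spanned 0.224 to 0.244 in the aneurysm and 0.151 to 0.171 in the control and did not overlap. With 2 spots per array this says little. The 2 spots per array of Birc2, Chuk and Ikbke, whose differences were within 2 spot errors, did not overlap either. The share of all such probes without overlap was not computed. With normexp, a background correction run with an offset of 50, this difference was 0.23. Tlr2, the receptor for bacterial lipoproteins, had a level of 0.768 in the aneurysm and 0.791 in the control (log2 -0.04 ± 0.07), with overlapping spots. Of all genes detected on both arrays, 3.73% had a larger difference than Tlr4 and 55.6% a larger one than Tlr2.

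Most measured macrophage and endothelial markers, which belong to cells that express these receptors, were higher, as Tlr4 was and Tlr2 was not. All 13 macrophage and microglia markers were detected on both arrays, and 10 of them were higher and 3 lower. Their median was 0.22 and their summed level 76.5 in the aneurysm and 70.4 in the control. The most abundant were C1qb at 0.22, Laptm5 at -0.08 and C1qa at 0.20. Of 7 measured endothelial markers 5 were higher and 2 lower (median 0.17), with a summed level of 18.1 in the aneurysm and 16.8 in the control. Of 6 smooth muscle markers 4 were higher and 2 lower (median 0.13), with a summed level of 95.3 in the aneurysm and 88.8 in the control. Among all 11201 genes detected on both arrays, 5599 were higher. Of 10 T and B lymphocyte markers 4 were detected on both arrays and all 4 were higher (median 0.43). With Cd8a, detected on the aneurysm array only, their summed level was 0.951 in the aneurysm and 0.733 in the control, while the B cell marker Cd79b was not detected on either array. Of 8 neutrophil markers 4 were detected on both arrays and 3 of these were lower (median -0.325). With 1 more, detected on a single array, their summed level was 0.385 in the aneurysm and 0.481 in the control. The part of these cell types in the difference of Tlr4 was not tested.

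Adaptors and receptor-proximal enzymes went both ways. Of 8 measured, 6 had a difference above 0, as had 5599 of 11201 genes. By more than 2 spot errors 3 of the 8 were higher, against 21.9% of all genes, and 1 was lower, against 21.5% of all genes. Myd88, the adaptor shared by most Toll-like receptors, had a level of 3.49 in the aneurysm and 3.09 in the control (log2 0.17 ± 0.06). Ripk1, a kinase and scaffold of the tumour necrosis factor receptor complex, had 0.416 in the aneurysm and 0.348 in the control (0.26 ± 0.04). Its repeat spots overlapped, at 0.355 to 0.454 in the aneurysm and 0.289 to 0.383 in the control. A dimmer second probe of Ripk1 gave 0.03 ± 0.14, so the probes of this gene disagree in size.

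Traf2, a ubiquitin ligase adaptor of the same receptor complex, had a level of 0.448 in the aneurysm and 0.394 in the control (0.18 ± 0.09). Its partner Birc2, which encodes cIAP1, had 0.454 in the aneurysm and 0.407 in the control (0.16 ± 0.09). Both were higher, Traf2 by just over 2 spot errors and Birc2 by less. Map3k7, the kinase that activates the IkappaB kinases, was the gene with the lowest difference. Its level was 0.694 in the aneurysm and 0.871 in the control, a difference of -0.33 ± 0.07. Its 2 spots per array did not overlap. With normexp, at -0.27, and with spike-in scaling, at -0.02, Map3k7 was not lower by more than 2 spot errors. The other 3 were within 2 spot errors. Irak1, a kinase recruited through Myd88, had 0.480 in the aneurysm and 0.502 in the control (-0.07 ± 0.09). The ubiquitin ligase Traf6 had 0.179 in the aneurysm and 0.172 in the control (0.06 ± 0.14). The kinase Irak4 was dim, at 0.0434 in the aneurysm and 0.0352 in the control, and its difference of 0.30 ± 0.49 was smaller than its spot error and -0.13 with normexp.

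The IkappaB kinases were within 2 spot errors in the reported scaling. The catalytic subunit Ikbkb had a level of 1.18 in the aneurysm and 1.14 in the control (0.04 ± 0.07). The other catalytic subunit, Chuk, had 0.176 in the aneurysm and 0.187 in the control (-0.09 ± 0.14). Ikbke, a related kinase that acts on interferon regulatory factors, had 2.57 in the aneurysm and 2.75 in the control (-0.10 ± 0.06). It was lower by more than 2 spot errors with quantile normalization, with loess centring and with the 75th percentile taken over detected probes, and higher by more than 2 with spike-in scaling. Of all genes, 43.7% had a larger difference than Ikbkb, 62.1% than Chuk and 63.6% than Ikbke, so the 3 lie in the middle of the distribution.

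Ikbkg and Tbk1 passed the background filter through the aneurysm array alone, so their direction follows from the filter. Ikbkg, the scaffold subunit NEMO, had 1 of 2 spots above background in the aneurysm and 0 of 2 in the control, at levels of 0.0173 in the aneurysm and 0.0103 in the control. It was at least 1.47-fold higher in the aneurysm (spot error 0.67 log2 units). For such a bound the dim array's value is replaced by the lowest value of any detected probe on that array, wherever it falls below it. Tbk1, a kinase of the Ticam1 branch, rested on 1 spot per array, at 0.0348 in the aneurysm and 0.0202 in the control. It was at least 1.73-fold higher, a bound equal to the measured difference and therefore an estimate with a spot error of 0.76 log2 units.

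Both measured NF-kappaB subunits were higher in the aneurysm by more than 2 spot errors in the reported scaling, and neither was with normexp. Rela, the main activating subunit, had a level of 2.03 in the aneurysm and 1.67 in the control (0.29 ± 0.06), with spots of 2.01 to 2.05 in the aneurysm and 1.59 to 1.75 in the control. A dim second probe of Rela with 1 spot per array gave -0.08 ± 0.27, and the mean over both probes was 0.10, within 2 spot errors. Nfkb2, whose product is processed in the non-canonical branch, had 0.589 in the aneurysm and 0.497 in the control (0.245 ± 0.09). The 2 spots per array of Nfkb2 did not overlap. With normexp its difference was 0.12, while that of the brighter Rela probe was 0.28.

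Inhibitors and feedback regulators held the gene with the largest difference among the 28. Nfkbia, which encodes IkappaB-alpha and is both the main inhibitor and a rapid target of the pathway, had a level of 3.55 in the aneurysm and 2.37 in the control. It was just past 1.5-fold higher (0.59 ± 0.06), with spots of 3.49 to 3.62 in the aneurysm and 2.32 to 2.41 in the control. Over the 10 other ways of processing the signals its difference ranged from 0.53 to 0.89, so that some put it just under 1.5-fold. Of all genes, 2.98% had a larger difference.

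Of the other IkappaB family genes, Bcl3 was higher by more than 2 spot errors, and Nfkbib and Nfkbie were within 2 spot errors. Nfkbib, an inhibitor not known for rapid feedback, had 0.250 in the aneurysm and 0.250 in the control (-0.0014 ± 0.12). Nfkbie had 0.213 in the aneurysm and 0.202 in the control (0.08 ± 0.14). Bcl3, a nuclear IkappaB protein that modulates NF-kappaB dimers, had 1.75 in the aneurysm and 1.47 in the control (0.25 ± 0.03). All 10 spots of Bcl3 in the aneurysm (1.67 to 1.81) lay above all 10 in the control (1.39 to 1.55). Tnip1, a binding partner of the Tnfaip3 deubiquitinase, rested on 1 spot per array, with 0.435 in the aneurysm and 0.433 in the control (0.0063 ± 0.13).

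Of the endothelial adhesion molecules that NF-kappaB induces, Vcam1 and Icam1 were higher in the aneurysm and the selectins were not measurable. Vcam1, which binds integrins of monocytes and lymphocytes, had a level of 4.45 in the aneurysm and 3.25 in the control, a 1.37-fold difference (0.46 ± 0.03). Its 9 spots on each array, after outliers were left out, spanned 4.11 to 4.63 in the aneurysm and 2.99 to 3.43 in the control. Icam1, which binds leukocyte beta integrins, had 2.80 in the aneurysm and 2.59 in the control (0.11 ± 0.03). Its 8 spots on each array spanned 2.68 to 2.96 in the aneurysm and 2.45 to 2.67 in the control, nearly touching. Most fibroblast markers, like most of the endothelial ones given above, were higher, as was Vcam1, which stromal cells also express. Of 6 fibroblast markers 5 were higher and 1 lower (median 0.48), with a summed level of 168 in the aneurysm and 155 in the control. The part of these cells in the difference of Vcam1 was not tested.

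Sele and Selp, the endothelial selectins that start leukocyte rolling, were not above background on the aneurysm or the control array. The probes of Sele had processed signals of 3.22 and 4.45 in the aneurysm and 4.55 and 2.98 in the control, and the probe of Selp 3.03 in the aneurysm and 3.25 in the control. The 308 negative control spots had a median of 3.1 in the aneurysm and 3.4 in the control, so no fold is given for the selectins. The adhesion genes therefore rest on Vcam1 and Icam1.

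**Figure D2:**
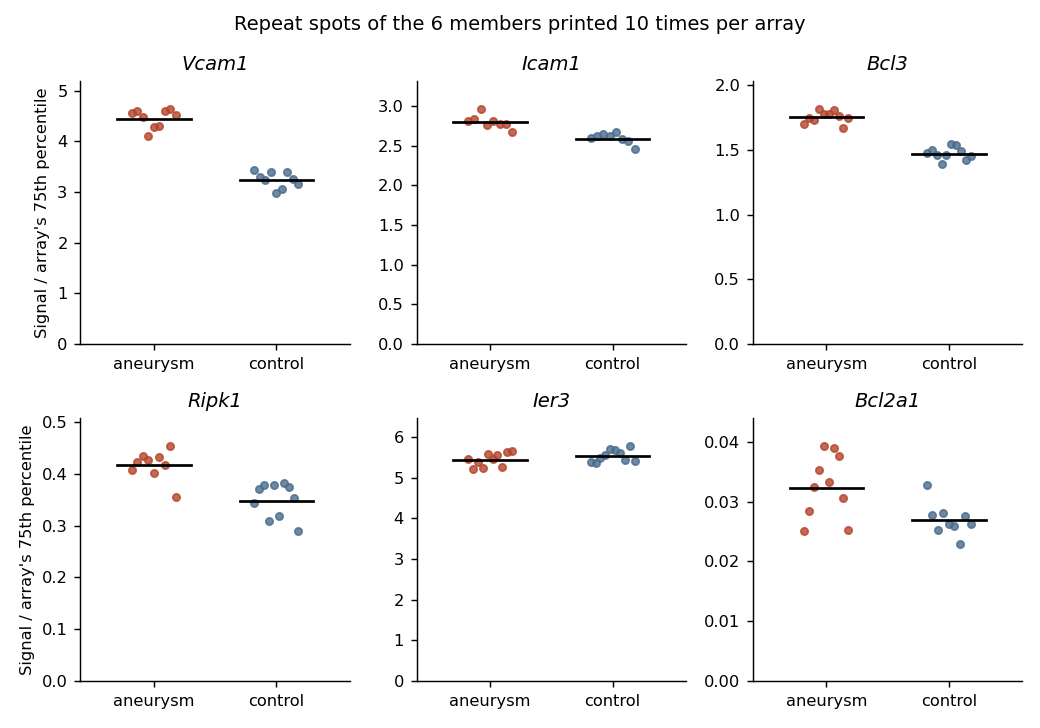
Level of each repeat spot (signal divided by the array's 75th percentile, vertical axis from 0) for the 6 genes printed 10 times per array, aneurysm on the left and control on the right, outlier spots left out. Bars are the means. The spots of Vcam1, Icam1 and Bcl3 do not overlap between the arrays, and those of Ripk1, Ier3 and Bcl2a1 do.

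Some probes were printed 10 times, which lets whole sets of spots be compared. Of 6 such genes, all aneurysm spots lay above all control spots for 3 (Vcam1, Icam1 and Bcl3), and the reverse held for 0. Among all 1254 such probes detected on both arrays, 33.5% had all aneurysm spots above all control spots, and 7.74% had them all below. Spots of 1 array share its labelling and hybridisation and are not replicates of a condition.

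The remaining targets are survival genes, enzymes and Cd83. Ier3, an early response gene that modulates cell death, had a level of 5.45 in the aneurysm and 5.54 in the control (-0.02 ± 0.03). Birc3, which encodes cIAP2, had 0.141 in the aneurysm and 0.136 in the control (0.05 ± 0.16). Bcl2a1, an anti-apoptotic Bcl-2 family gene, was dim, with 0.0322 in the aneurysm and 0.0269 in the control (0.26 ± 0.24), and turned to -0.16 with normexp. In the reported scaling these 3 were within 2 spot errors. Ier3 was lower by more than 2 with quantile normalization, loess centring and the 75th percentile taken over detected probes, and Bcl2a1 with normexp, while spike-in scaling put all 3 more than 2 spot errors higher.

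The enzymes were within 2 spot errors in the reported scaling, and their calls and signs depended on the scaling. Sod2, the mitochondrial superoxide dismutase, had 1.55 in the aneurysm and 1.65 in the control (-0.08 ± 0.06), with overlapping spots. It was lower by more than 2 spot errors with quantile normalization, loess centring and the 75th percentile taken over detected probes, all at -0.14, and higher with spike-in scaling, at 0.22. Nos2, the inducible nitric oxide synthase, was dim, at 0.0420 in the aneurysm and 0.0450 in the control (-0.10 ± 0.39). Nos2 was lower by more than 2 spot errors with normexp, at -0.27, while quantile normalization put it at 0.10 and spike-in scaling at 0.21. Cd83, a surface molecule of activated dendritic cells and lymphocytes, had 1.33 in the aneurysm and 1.19 in the control (0.16 ± 0.06). Its 2 spots per array did not overlap.

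Set side by side, the pathway's components and its induced targets had nearly the same median difference. The 16 components detected on both arrays had a median of 0.11 (range -0.33 to 0.54), and the 12 targets a median of 0.10 (range -0.10 to 0.59). More than 2 spot errors higher were 6 of 16 components and 5 of 12 targets, against 21.9% of all genes. The target median minus the component median was -0.01. With Ikbkg and Tbk1 at their bounds, whose direction follows from the filter, the component median was 0.16 and this difference -0.07. With normexp both medians were just below 0, at -0.015 for components and -0.017 for targets. The ranges of the classes overlap, and neither was tested against the other.

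**Figure D3:**
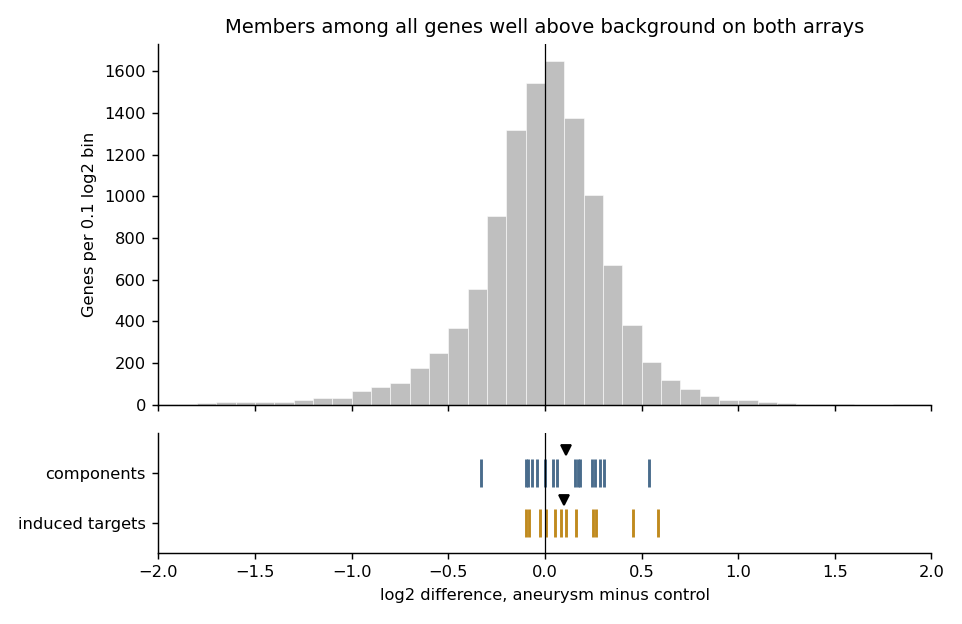
Distribution of log2 differences (aneurysm minus control) over genes detected on both arrays, in bins of 0.1 and drawn from -2 to 2 (upper panel), and the differences of the 16 components and 12 induced targets (ticks, lower panel; triangles mark medians). Both sets lie inside the body of the distribution, with medians of 0.11 and 0.10.

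Genes of the same pathway outside the 39 were read from lists of 46 other pathway genes and 31 other induced targets, of which Cd14 is also a macrophage marker. Of 30 other pathway genes detected on both arrays, 22 had a difference above 0, as had 5599 of all 11201 genes, and the median was 0.17. More than 2 spot errors higher were 17 of the 30, against 21.9% of all genes, and lower 4, against 21.5% of all genes. The largest differences were those of Ly96, the lipopolysaccharide co-receptor of Tlr4, at 0.70 ± 0.22, and Tlr3, the receptor for double-stranded RNA, at 0.63 ± 0.08. They were followed by Map3k14, the kinase of the non-canonical branch, at 0.57 ± 0.26 and the single-stranded RNA receptor Tlr7 at 0.54 ± 0.49. Ly96 had a level of 0.208 in the aneurysm and 0.129 in the control, and Tlr3 0.731 in the aneurysm and 0.471 in the control. Nfkb1 had no matched probe and is not analysed here.

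The other induced targets spread more widely than the 12 above. Of 22 detected on both arrays, 16 had a difference above 0, as had 5599 of all 11201 genes, and the median was 0.09. At least 1.5-fold higher were 6 of the 22, against 3.0% of all genes, and at least 1.5-fold lower 1, against 6.22% of all genes. Ccl2, a monocyte chemoattractant, had 0.315 in the aneurysm and 0.146 in the control (2.15-fold), and Cxcl10, an interferon-induced chemokine, 0.502 in the aneurysm and 0.299 in the control (1.68-fold). Lcn2, an acute-phase gene that liver and neutrophils also express, was the lowest, at 0.0219 in the aneurysm and 0.0894 in the control (-2.03 ± 0.28). These genes are named by rule for the size of their differences and say nothing about the other members of their list.

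**Figure D4:**
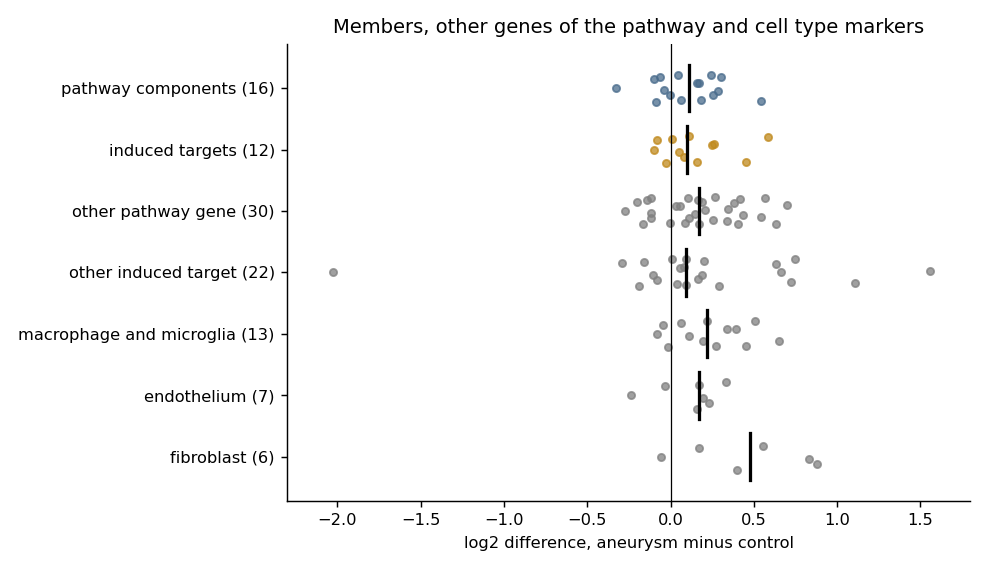
Log2 difference (aneurysm minus control, horizontal axis) of each gene detected on both arrays, for the components, the induced targets, the other pathway and target lists, and 3 lists of cell type markers (number of genes in brackets, bars at the medians). The medians of the 4 pathway lists lie between 0.09 and 0.17, and that of the fibroblast markers at 0.48.

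The scaling of the arrays changed the counts. Scaling by the labelled spike-in RNA raised the median of all genes by 0.31, and that of the 28 genes to 0.40, so that 24 of them were more than 2 spot errors higher, against 58.7% of all genes. Relative to the median of all genes, the 28 genes lay 0.10 higher in the reported scaling and 0.06 to 0.10 higher under the 10 alternatives. With normexp 3 of the 28 remained more than 2 spot errors higher, Nfkbia, Bcl3 and Vcam1, against 6.81% of all genes. Spike-in scaling put above 0 the 8 genes other than Map3k7 that were below it in the reported scaling, Tlr2, Irak1, Chuk, Ikbke, Nfkbib, Ier3, Nos2 and Sod2. Map3k7 was below 0 in all of these settings, at -0.02 with spike-in scaling.

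**Figure D5:**
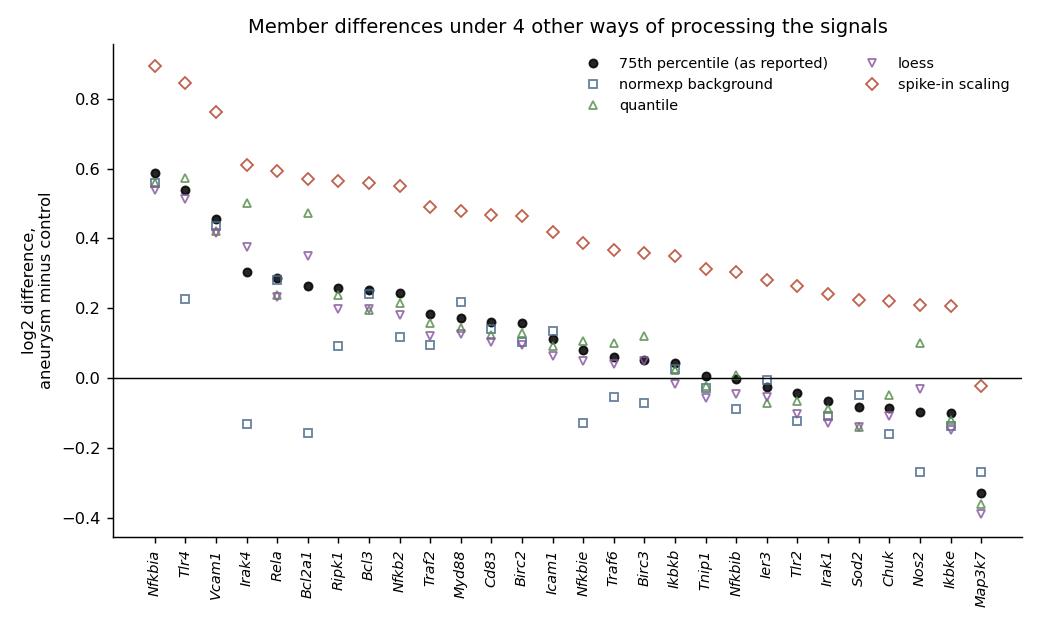
Log2 difference (aneurysm minus control, vertical axis) of each of the 28 genes in the reported scaling and under 4 other ways of processing. Spike-in scaling lies above the rest for all genes, and normexp departs most from the others for dim genes such as Tlr4, Irak4, Bcl2a1 and Nfkbie. Nfkbia, Tlr4 and Vcam1 are above 0 in each of the 5 settings.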

How the data were processed

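Per the labels' protocols, a fibrous-tissue kit gave the RNA and a low-input 1-colour kit the label. The authors deposited scanner output of 1 array per sample, made by version 10.10.1.1 of Feature Extraction. Per the file headers it holds deposited spot intensity values on a linear scale and flags for background, saturation and outliers. The slide and the scan were the same for both arrays.

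The 58717 non-control spots of 30367 probes were used, and no spot was saturated. Of these spots, 76.4% were well above background in the aneurysm and 74.7% in the control. Signals were divided by each array's 75th percentile (801 in the aneurysm, 621 in the control) and put on the log2 scale. Outlier spots (573 and 484) were left out, and spots of a probe were averaged. Accessions without version were matched to RefSeq gene names (build GRCr8), which named 18006 of the 30367 probes. The brightest probe that passed the background flag on either array stood for its gene. The spot error pools the spot SD over probes of like signal in 20 bins. The code was tested on simulated arrays. The alternatives were normexp on median spot signals, with limma 3.58.1, 5 other scalings, a looser and a stricter filter on dim genes, outlier spots kept and probes of a gene averaged.

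The genes, lists, roles and thresholds were chosen with earlier results of these data known. The text names all 39 genes, and from other lists up to 4 genes with the largest absolute difference, plus Nfkb1 and Ccl2, and the most abundant cell type markers. An item that this rule names is not reported here. Array coordinates are not used, because the array's annotation is of another build than the sequences.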

Additional observations from a re-analysis of the deposited data

How the results depend on the processing

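Each value was recomputed under 10 other ways of processing, and the counts of genes past 2 spot errors were added to this comparison after the data had been seen. Of 296 values of single genes, 244 moved by less than their spot error and 52 by more. Of the genes past 1.5-fold, Nfkbia and Tbk1, Nfkbia did not change sign. The background filter allowed Tbk1 and Ikbkg only a positive sign wherever it was used, so their signs are no check. Counting Ikbkg and Tbk1 at their bounds, 2 genes were at least 1.5-fold higher (4.25% of all genes) and 0 lower (8.43%). The number at least 1.5-fold higher was 0 with normexp, which gives no value for Ikbkg and Tbk1, and 7 with spike-in scaling. It was 1 with the 75th percentile taken over detected probes or with genes on both arrays only. Of all genes detected on both arrays, 3.0% were at least 1.5-fold higher in the reported scaling. This share was 0.83% with normexp, 15.7% with spike-in scaling and 2.22% with the 75th percentile taken over detected probes. At 2-fold it was 0, and at 25% higher or 20% lower 5 higher and 1 lower. With no filter on dim genes 1 gene was at least 1.5-fold lower, Sele, which is not above background. Genes above 0 numbered 21 of 30, or 13 of 28 with normexp and 29 of 30 with spike-in scaling. The median of all genes detected on both arrays also moved, to -0.08 with normexp and 0.31 with spike-in scaling. The medians of components and targets, 0.16 and 0.10, were -0.015 and -0.017 with normexp and 0.47 and 0.40 with spike-in scaling. More than 2 spot errors higher were 11 (21.9% of all genes), or 3 with normexp (6.81%) and 24 with spike-in scaling (58.7%). More than 2 spot errors lower was 1 (21.5% of all genes), or 2 with normexp (18.5%) and 0 with spike-in scaling (5.63%). It was 4 with quantile normalization (21.7%), with the 75th percentile taken over detected probes (27.2%) and with loess centring (24.6%). The cause of these shifts was not tested. Of 30 genes, 15 changed sign under at least 1 alternative. Signal over background limits Irak4, Nos2, Bcl2a1, Ikbkg and Tbk1. No paired analysis was possible because each group holds 1 sample.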
